A study of Mus musculus with 12 samples.

Results

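Glucocorticoids reach their target genes through the glucocorticoid receptor, encoded by *Nr3c1*. In the pituitary corticotroph, the cell that makes adrenocorticotrophic hormone (ACTH) from the *Pomc* precursor, the ligand-bound receptor represses *Pomc* and so closes the feedback loop of the stress axis. The receptor matures on a chaperone complex in the cytosol, is fed or starved of ligand by steroid-converting enzymes, and recruits coactivators, corepressors and chromatin remodellers on DNA. The 10 genes described here stand for these steps. They are the receptor *Nr3c1*, the related mineralocorticoid receptor *Nr3c2*, the enzymes *Hsd11b1* and *Hsd11b2*, the cochaperone *Fkbp4*, the coactivators *Ncoa1* and *Ncoa2*, the corepressor *Ncor1*, the remodeller ATPase *Smarca4* and the histone deacetylase *Hdac2*. They were selected by gene symbol from the 55304 genes of the expression table, and all 10 symbols were found. The set was chosen with earlier results of these data known. Of the 10 genes, *Ncor1* and *Hdac2* are corepressor components by their usual description, and *Smarca4* complexes also take part in *Pomc* repression.

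The cells were eGFP-positive anterior pituitary cells sorted by flow cytometry from male *Pomc*-eGFP mice on a C57Bl6/J background, aged 8 weeks at the start. The transgene places the fluorescent protein under *Pomc* regulatory sequence, so sorting follows transgene activity. Control mice (group A) drank plain water. Mice under DEX (group B) drank 2.5 µg/ml dexamethasone, a synthetic glucocorticoid, for 4 weeks and were collected at its end, and the recovery groups were collected 7 days (group C) and 28 days (group D) after the same 4 weeks of DEX. All mice were collected at the same age and in the early rest period. Each group had 3 libraries, and each library was made from the sorted cells of several pooled pituitaries (3 by the sample labels). The replicates are therefore pools, and the p-values measure the spread between pools.

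The libraries held between 7719894 and 12848078 reads on genes. Expression is given as normalised counts, the authors' CPM of the scaled library size, and 1 read was worth 0.0787 to 0.127 of these units. The 8 corticotroph markers each had a mean above 0.1 over the 12 libraries, with summed levels of 35301 to 75541 in controls and 5577 to 9429 under DEX. Their sums were 43871 to 286230 at 1 week and 48724 to 80899 at 4 weeks. The summed level of the somatotroph markers, led by growth hormone, was 67667 to 265990, so RNA of other hormone cells was present in the sorted pools. Under DEX this sum was 67667 to 104320. The somatotroph sum exceeded the corticotroph sum in every pool, controls included, except 1-week pools 1 and 2. In such bulk samples, fewer cells of a type and less RNA per cell cannot be told apart. Pools 2 and 3 at 1 week, pool 3 of the controls and pool 3 under DEX received the lowest array weights (0.341 to 0.576), a measure of how closely a library follows its group over all genes.

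None of the 10 genes passed the test for a difference over the 4 groups, while the receptor itself, its cochaperone *Fkbp4*, *Ncoa2* and *Smarca4* stayed within 2-fold of control under DEX by their confidence intervals. In the limma F test with Benjamini-Hochberg adjustment over 24736 genes, 0 of 10 members had an adjusted p under 0.05, against 0.315% of all genes. At an unadjusted p under 0.05, 2 of 10 members were found (*Hsd11b1* and *Hsd11b2*), against 9.21% of all genes. *Hsd11b2* had 0 reads in each control pool and entered the test only through pools of the DEX and recovery groups. Its place in this count is therefore not evidence of a difference. On the recovered reads, edgeR called 0 of 10 members by its quasi-likelihood F test and by its likelihood ratio test, and DESeq2 called 0 of 10. The member with the largest difference on a well-covered level was *Hsd11b1*, whose fitted level 4 weeks after withdrawal (mean on the log2 scale) was 2.28 times that of controls (95% CI 1.35 to 3.85, 3 pools each).

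**Figure D1:**
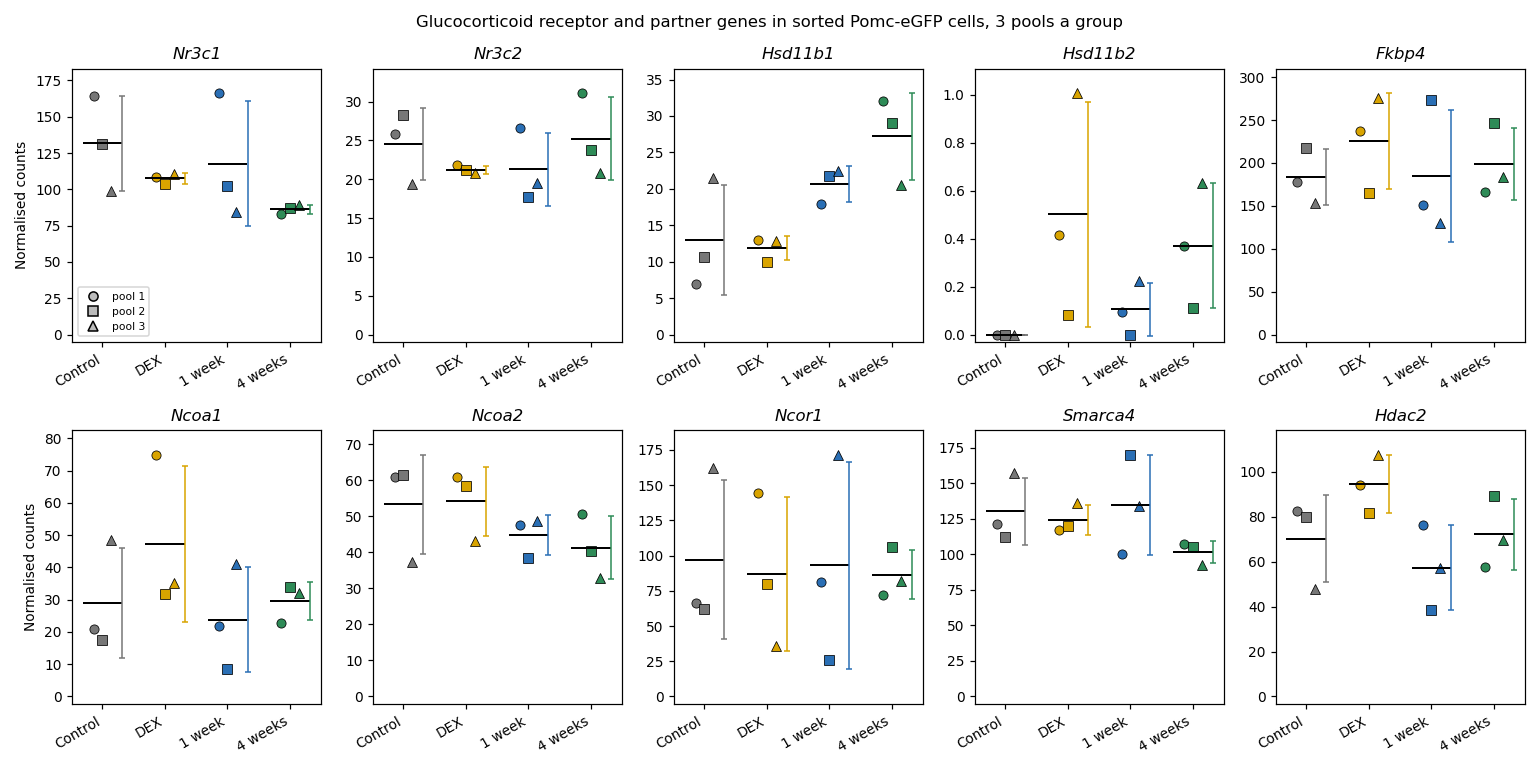
Normalised counts (linear axes) of the 10 genes in control, DEX, 1-week and 4-week recovery pools, with marker shape giving the pool number, the black line the mean and the coloured bar ± 1 SD (n = 3 pools). *Hsd11b1* lay at 20.5 to 32.1 at 4 weeks against 9.97 to 12.9 under DEX, whereas *Ncor1* varied within groups, from 26.0 to 172 among the 1-week pools.

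Levels between genes were compared per kilobase of merged exons. *Fkbp4* was highest in control pools, at 65.6 ± 11.6 normalised counts per kilobase (SD, n = 3), and its pools did not overlap those of any other member. *Smarca4* followed at 20.1 ± 3.63, *Nr3c1* at 17.1 ± 4.26 and *Hdac2* at 15.7 ± 4.31, and these neighbours overlapped. *Ncor1* stood at 7.57 ± 4.41 and overlapped *Hdac2*. *Nr3c2* (3.78), *Ncoa2* (3.40), *Ncoa1* (3.38) and *Hsd11b1* (3.05) formed a group of overlapping low levels, and *Hsd11b2* had no read in any control pool. The place of *Hsd11b1* depended on the length used, because its merged exons span 4251 bases and its longest transcript 1978 bases. It ranked ninth by the former and sixth by the latter in controls.

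**Figure D2:**
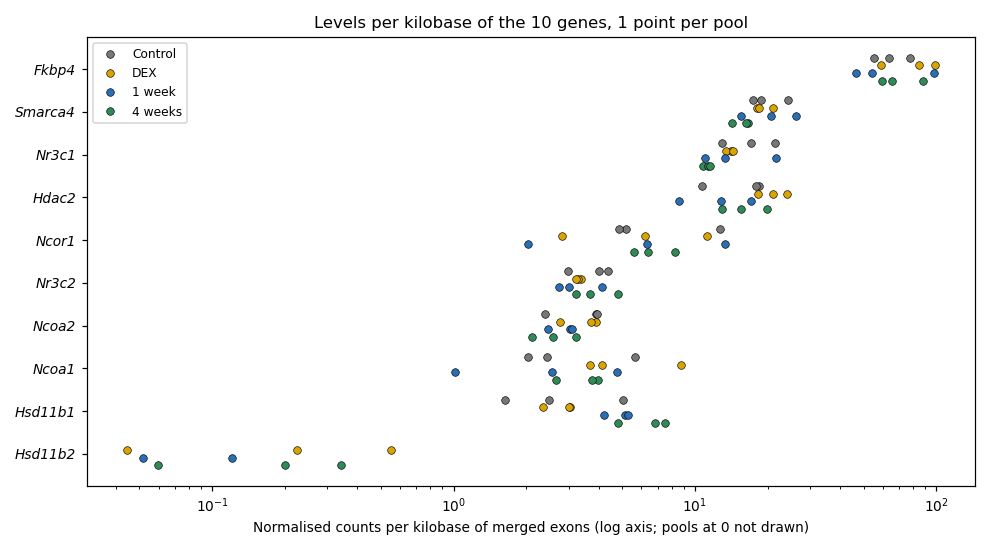
Normalised counts per kilobase of merged exons (log axis) for the 10 genes, ordered by their control mean, with 1 point per pool and colours for the 4 groups. *Fkbp4* pools lie between 46.7 and 98.6, and *Hsd11b2* stays at or below 0.548.

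The receptors come first by role. *Nr3c1* measured 165, 132 and 99.1 normalised counts in control pools 1 to 3, and 108, 104 and 110.5 under DEX. At 1 week it measured 167, 102 and 84.6, and at 4 weeks 82.9, 87.1 and 89.1. The DEX and 4-week pools were tightly grouped, while the highest pool was 1.66 times the lowest in controls and 1.97 times at 1 week. All 3 pools at 4 weeks lay below every control and every DEX pool. The fitted log2 difference from control was -0.26 under DEX (SE 0.27, 95% CI -0.83 to 0.30), -0.19 at 1 week and -0.58 at 4 weeks (SE 0.27, 95% CI -1.15 to -0.01). The last of these had an unadjusted p of 0.0458 and an adjusted p of 0.777 in limma.

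*Nr3c2* encodes the mineralocorticoid receptor, which binds corticosterone with higher affinity than the glucocorticoid receptor. It measured 25.9, 28.3 and 19.4 in control pools, 21.8, 21.2 and 20.7 under DEX, 26.6, 17.7 and 19.5 at 1 week, and 31.1, 23.8 and 20.8 at 4 weeks. The groups overlapped in every comparison, and its log2 differences from control lay between -0.21 and 0.04 (adjusted p of the F test in limma 0.960). Per kilobase, *Nr3c1* exceeded *Nr3c2* in each of the 12 libraries. The ratio was 5.36, 3.92 and 4.31 in controls, 4.19, 4.12 and 4.49 under DEX, 5.27, 4.86 and 3.66 at 1 week, and 2.24, 3.09 and 3.60 at 4 weeks. The 4-week pools had the 3 lowest ratios, a description made after the values were seen and not tested.

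Ligand supply is set by a pair of enzymes with opposite directions. *Hsd11b1* (chr1:193221634-193264075 on the minus strand, GRCm38) encodes the reductase that regenerates active corticosterone from 11-dehydrocorticosterone. It measured 6.92, 10.6 and 21.4 in control pools and 12.9, 9.97 and 12.8 under DEX. At 1 week it measured 17.9, 21.8 and 22.5, and at 4 weeks 32.1, 29.0 and 20.5. Both recovery groups lay above every DEX pool, but control pool 3 overlapped each of them. The group means were 13.0 ± 7.54 for control, 11.9 ± 1.66 for DEX, 20.7 ± 2.48 after 1 week off the drug and 27.2 ± 6.0 after 4 weeks (SD, n = 3).

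The log2 difference of *Hsd11b1* from control was 0.02 under DEX (95% CI -0.73 to 0.78), 0.82 at 1 week (95% CI 0.06 to 1.57) and 1.19 at 4 weeks (SE 0.35, 95% CI 0.44 to 1.95). The 4-week difference had an unadjusted p of 0.00417 and an adjusted p of 0.557 in limma, so it did not pass. Against DEX, the differences were 0.80 at 1 week (adjusted p 0.426 in limma) and 1.17 at 4 weeks (adjusted p 0.165 in limma). With array weights, which give less influence to scattered libraries, limma called *Hsd11b1* over the 4 groups (adjusted p 0.0132), at 4 weeks against control (log2 difference 1.39, adjusted p 0.0241) and at 4 weeks against DEX (1.20, adjusted p 0.00997). The same fit called 1069, 186 and 1300 of the 24736 genes in these comparisons. Leaving out any one pool gave no call, and the 4-week difference from control then ranged from 0.82 to 1.63.

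Summed markers of several cell types other than corticotrophs tended to be higher in the pools where *Hsd11b1* was high, with the weakest relation for gonadotrophs. All 7 endothelial markers had a mean above 0.1 over the 12 libraries. They summed to 10.4 to 76.0 in controls and 6.46 to 13.5 under DEX. At 1 week the sum was 30.2 to 183, and at 4 weeks 83.1 to 158. The 8 fibroblast and pericyte markers summed to 97.6 to 155, 77.5 to 119, 87.5 to 230.3 and 182 to 295 in the same order. The 8 leukocyte markers summed to 67.3 to 168, 27.3 to 45.0, 114 to 218 and 134 to 323. Over the 12 libraries the Pearson r of *Hsd11b1* was 0.826 with the endothelial sum (Spearman rho 0.832), 0.703 with the leukocyte sum and 0.678 with the fibroblast sum. For the hormone-cell lists r was 0.752 (somatotroph), 0.722 (lactotroph), 0.672 (melanotroph), 0.610 (thyrotroph), 0.391 (corticotroph) and 0.284 (gonadotroph), and for the stem and folliculostellate list 0.590. These libraries share the group structure, and the part of these cells in the *Hsd11b1* values was not tested.

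*Hsd11b2* encodes the dehydrogenase that inactivates corticosterone. It had 0 reads in each control pool, 5, 1 and 9 reads under DEX, 1, 0 and 2 reads at 1 week, and 4, 1 and 7 reads at 4 weeks. A count of 0 was taken to allow up to 3 reads in each control library. The DEX mean was 1.64 times and the 4-week mean 1.21 times the control mean at that limit. Neither mean carried its own counting error or pool spread, so these ratios set no minimum increase. Single pools in both groups stood at 1 read. The limma adjusted p was 0.459 under DEX and 0.678 at 4 weeks, for a gene that entered the test only through DEX and recovery pools. No level of this gene could be followed at this depth.

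*H6pd*, which supplies the cofactor for the reductase, was read beside *Hsd11b1*. It measured 11.9, 12.5 and 9.02 in controls, 13.5, 18.2 and 17.4 under DEX, 10.3, 10.6 and 7.67 at 1 week, and 18.1, 39.4 and 36.0 at 4 weeks. Its DEX and 4-week pools lay above every control pool. The log2 difference was 1.41 at 4 weeks (SE 0.32, limma adjusted p 0.469), and the F test gave an adjusted p of 0.0899. Of 19 listed genes of steroid supply, 11 passed the filter on low values and 0 passed the limma F test, with 3 at an unadjusted p under 0.05 (9.21% of all genes). edgeR's quasi-likelihood test and DESeq2 called *H6pd* over the 4 groups (adjusted p 0.0298 and 2.59e-05). The paper had already listed *H6pd* among its differentially expressed genes in the same libraries, as raised at 4 weeks and unchanged under DEX.

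The cochaperone *Fkbp4* (chr6:128429735-128438677, minus strand, GRCm38) encodes FKBP52, which favours transport of the receptor to the nucleus. Its relative *Fkbp5* (chr17:28399094-28517527, minus strand) encodes FKBP51, which lowers the receptor's affinity for its ligand and is itself a glucocorticoid target. RefSeq gave the start site used for each gene. The bases upstream of it are shown for this pair because their values parted under DEX. Capitals mark CCAAT and its complement ATTGG. The *Fkbp4* window is chr6:128438678-128438906 and the *Fkbp5* window chr17:28486150-28486399, both on the minus strand of GRCm38.p6, and 21 bases of annotated exon were left off the first.
Fkbp4: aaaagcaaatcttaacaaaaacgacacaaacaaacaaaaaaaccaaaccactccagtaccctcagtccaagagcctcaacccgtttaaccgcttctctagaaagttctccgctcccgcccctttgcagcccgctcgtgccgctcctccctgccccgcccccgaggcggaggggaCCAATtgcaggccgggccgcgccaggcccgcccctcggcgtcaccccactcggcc
Fkbp5: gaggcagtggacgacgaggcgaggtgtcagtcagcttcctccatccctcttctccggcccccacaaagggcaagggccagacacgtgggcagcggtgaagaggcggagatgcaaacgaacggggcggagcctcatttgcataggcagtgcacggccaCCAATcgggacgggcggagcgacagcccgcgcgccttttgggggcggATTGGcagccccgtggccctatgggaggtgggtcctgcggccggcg
Over the 250 bases before the start, *Fkbp4* held 1 CCAAT match and *Fkbp5* held 2, counted on both strands. CCAAT was found in 33.8% of the 32851 windows of that length. The hexamer AGAACA or its complement TGTTCT, the core of the receptor's binding element, was found in neither gene's window and in 16.1% of all windows. Among the members, 7 of 10 had a RefSeq window, and AGAACA or TGTTCT was found in 1 of the 2 *Ncor1* windows. These are letter matches, and the known receptor-bound sites of *Fkbp5* need not lie there.

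*Fkbp4* measured 178, 218 and 154 normalised counts in control pools, 237, 165 and 276 under DEX, 151, 273 and 130.4 at 1 week, and 166, 246 and 184 at 4 weeks. The groups overlapped in every comparison. The log2 difference under DEX was 0.28 (SE 0.30, 95% CI -0.36 to 0.93, limma adjusted p 0.906). *Fkbp5* measured 80.8, 86.8 and 106 in controls, 546, 230.1 and 354 under DEX, 72.1, 19.5 and 68.3 at 1 week, and 100.2, 133 and 129.7 at 4 weeks. Its DEX pools lay above every other pool and its 1-week pools below every control pool.

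Over the 4 groups *Fkbp5* passed the limma F test (adjusted p 0.0229). Its log2 difference from control was 1.97 under DEX (SE 0.42, limma adjusted p 0.0971), -0.98 at 1 week and 0.41 at 4 weeks, and from DEX to 1 week it fell by 2.95 (limma adjusted p 0.00581). The call over the 4 groups was lost without DEX pool 1 (adjusted p 0.205 in limma), DEX pool 3 (0.165), control pool 2 (0.0503), 4-week pool 2 (0.0595) or 4-week pool 3 (0.0548). Per kilobase of merged exons, the ratio of *Fkbp5* to *Fkbp4* was 0.134, 0.118 and 0.204 in controls, 0.680, 0.410 and 0.379 under DEX, 0.141, 0.0211 and 0.155 at 1 week, and 0.178, 0.160 and 0.209 at 4 weeks. The ratio was higher in each DEX pool than in any other pool, and *Fkbp5* stayed below *Fkbp4* in all 12 libraries. *Fkbp5* was the 1 gene of 21 listed chaperones and cochaperones past the limma F test, against 0.315% of all genes. The paper had already listed it among the genes raised by DEX in the same libraries.

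**Figure D3:**
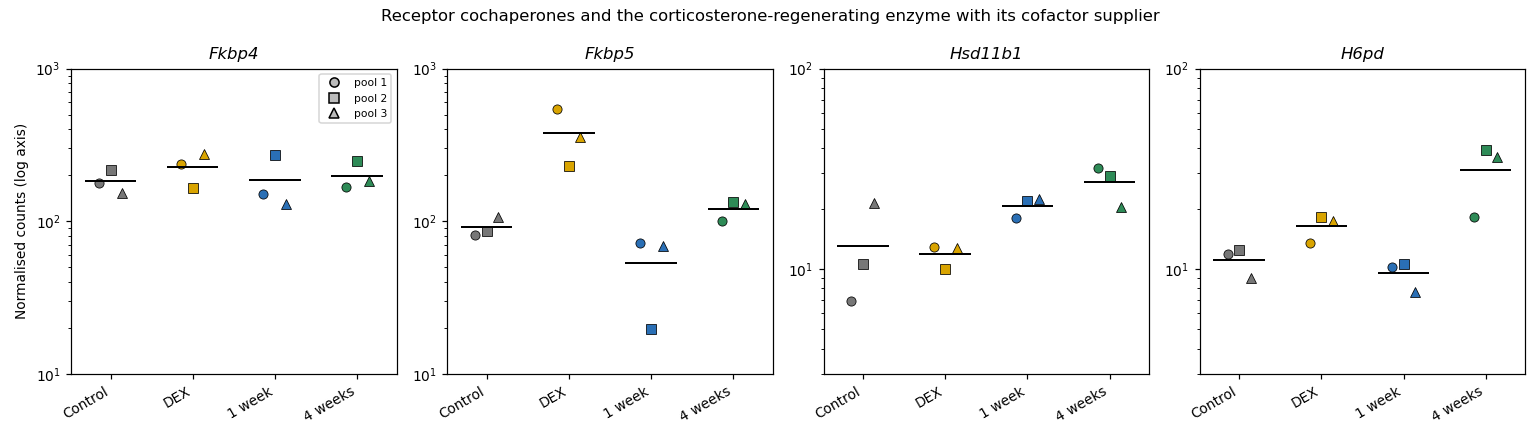
Normalised counts (log axes) of *Fkbp4*, *Fkbp5*, *Hsd11b1* and *H6pd* in each pool of the 4 groups, with black lines at group means (n = 3 pools). *Fkbp5* reached 230.1 to 546 under DEX while *Fkbp4* stayed between 130.4 and 276 in all 12 libraries, and *H6pd* was highest at 4 weeks, at 18.1 to 39.4.

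The p160 coactivators bind the activated receptor and bring histone acetyltransferases to its target genes. *Ncoa1* measured 21.0, 17.4 and 48.6 in control pools, 75.0, 31.6 and 35.2 under DEX, 21.9, 8.67 and 40.9 at 1 week, and 22.8, 34.0 and 32.0 at 4 weeks. DEX pool 1 was the highest and 1-week pool 2 the lowest, and the groups overlapped in every comparison. The log2 difference was 0.74 under DEX (95% CI -0.33 to 1.81) and -1.14 from DEX to 1 week (unadjusted p 0.0381, adjusted p 0.421 in limma). With log2 *Malat1* as a covariate, an alternative added after the data were seen, the DEX to 1-week difference was -1.56 and passed (limma adjusted p 0.0314).

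*Ncoa2* measured 61.0, 61.5 and 37.3 in controls, 61.0, 58.3 and 43.1 under DEX, 47.4, 38.4 and 48.6 at 1 week, and 50.5, 40.4 and 32.9 at 4 weeks. It overlapped between groups throughout, and its log2 differences from control lay between -0.35 and 0.04 (adjusted p of the F test in limma 0.912). Another p160 coactivator, *Ncoa3*, ranged from 20.3 to 54.2 over the 12 libraries (adjusted p of the limma F test 0.950). Of 20 listed coactivators, 0 passed the limma F test and 4 had an unadjusted p under 0.05, against 9.21% of all genes.

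*Ncor1* (chr11:62316426-62458541, minus strand, GRCm38) encodes a scaffold that carries histone deacetylases to nuclear receptors. It measured 66.5, 62.3 and 162 in control pools, 144, 79.9 and 36.1 under DEX, 81.5, 26.0 and 172 at 1 week, and 71.7, 106 and 81.8 at 4 weeks. The group means were 97.0, 86.8, 93.0 and 86.5 in that order, while single pools of 1 group differed by up to 6.60-fold. The limma F test gave an adjusted p of 0.993. The spread within groups had an SD of 0.94 on the log2 scale, larger than in 98.3% of 3063 genes of like expression. For *Ncoa1* the SD was 0.78, larger than in 93.4% of 5348 such genes. For either gene, a 2-fold difference in at least 1 direction lay inside the 95% confidence interval of each of the 6 comparisons. The library kit does not mark strand, and *Ncor1* shares 82 exonic bases with *Pigl* on the opposite strand, a gene of at most 12.1 normalised counts.

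The pool-to-pool pattern of *Ncor1* followed that of *Malat1*, a long RNA kept in the nucleus, which ranged from 853 to 14167 normalised counts. Over the 12 libraries, log2 *Ncor1* and log2 *Malat1* had a Pearson r of 0.841 (Spearman rho 0.692), and r was 0.765 without the 2 libraries farthest from the median of *Malat1* (1-week pool 3 and DEX pool 3). *Fkbp4* ran the other way, with r of -0.822 (rho -0.818), and -0.672 without those libraries. For *Ncoa1* r was 0.429 and 0.611 without them, and for the other members on a measurable level it lay between -0.15 and 0.35. Without the same libraries r was 0.406 for *Nr3c1*, 0.434 for *Nr3c2*, 0.432 for *Ncoa2* and 0.486 for *Hdac2*. It was then -0.289 for *Hsd11b1* and -0.269 for *Smarca4*. *Ncoa1* and *Ncor1* had an r of 0.774 with each other. All of these values share the same 12 libraries, and the part of nuclear RNA content in them was not tested.

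**Figure D4:**
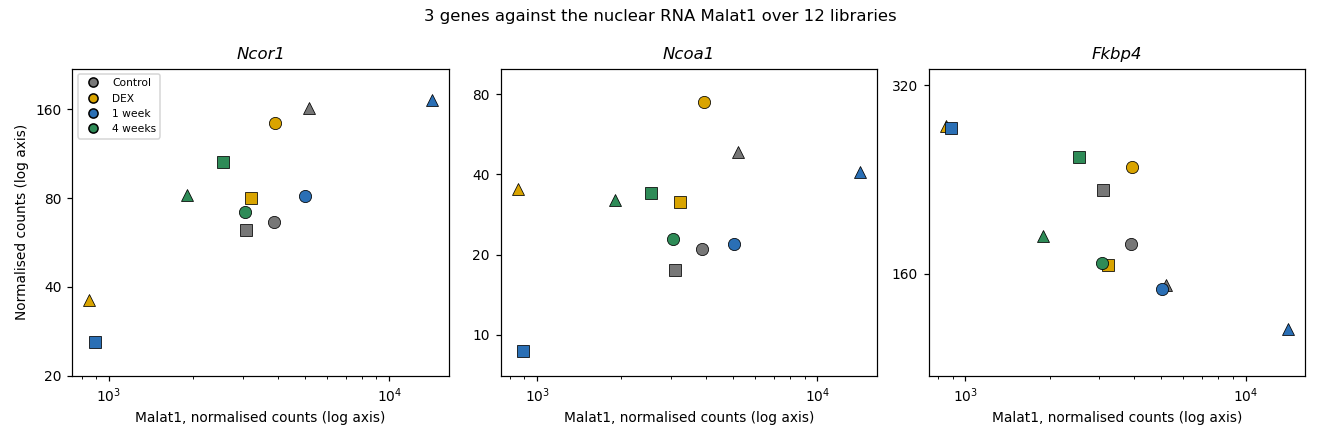
*Ncor1*, *Ncoa1* and *Fkbp4* against *Malat1* (normalised counts, both axes log) in the 12 libraries, coloured by group, with circles, squares and triangles for pools 1, 2 and 3. *Ncor1* rises with *Malat1* (r = 0.841) and *Fkbp4* falls (r = -0.822), with pools of different groups side by side.

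*Hdac2* encodes a histone deacetylase of several corepressor complexes. It measured 82.6, 80.1 and 48.1 in controls, 94.2, 81.7 and 108 under DEX, 76.3, 38.6 and 57.3 at 1 week, and 57.7, 89.1 and 69.6 at 4 weeks. Every 1-week pool lay below every DEX pool, and the other groups overlapped. The log2 difference was 0.46 under DEX (95% CI -0.17 to 1.08) and -0.76 from DEX to 1 week (SE 0.29, unadjusted p 0.0198, adjusted p 0.327 in limma). Of 22 listed corepressor genes, 0 passed the limma F test and 1 had an unadjusted p under 0.05 (all genes 9.21%). Among them *Hdac1*, the paralog of *Hdac2*, ranged from 55.1 to 94.8 over the 12 libraries (adjusted p of the limma F test 0.991).

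*Smarca4* encodes BRG1, the ATPase of SWI/SNF complexes that open chromatin for the receptor and that take part in *Pomc* repression. It measured 121, 112 and 157 in controls, 117, 119.6 and 136 under DEX, 100.1, 170.0 and 134 at 1 week, and 107, 105 and 92.4 at 4 weeks. The 4-week pools lay below every control and DEX pool by a small margin. The log2 difference at 4 weeks was -0.35 (SE 0.24, 95% CI -0.86 to 0.17, limma adjusted p 0.871). The alternative ATPase *Smarca2* ranged from 103 to 209 (adjusted p of the limma F test 0.949). Of 26 listed SWI/SNF subunits, 0 passed the limma F test and 2 had an unadjusted p under 0.05 (all genes 9.21%). In the contrast of 1 week with DEX, 1 of the 26 passed, against 0.433% of all genes. It was *Smarcd2*, named after its values were seen, which fell by 1.67 on the log2 scale (limma adjusted p 0.0191).

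Set side by side, the comparisons with control gave few members outside the range of the control pools. Under DEX, 1 of 10 members (*Hsd11b2*) did not overlap control, against 12.8% of all genes. At 1 week 0 of 10 did so, against 6.08%, and at 4 weeks 3 of 10 (*Nr3c1* and *Smarca4* lower, *Hsd11b2* higher), against 13.2%. For *Hsd11b2*, single DEX and 4-week pools held 1 read against 0 in controls. This lies below the limit of 3 reads used above, so its separation from control is not shown. The limma test of each contrast called 0 of 10 members at an adjusted p under 0.05, against 0.121%, 0% and 0% of all genes, and the edgeR tests and DESeq2 called 0 of 10 as well. At an unadjusted p under 0.05 the members numbered 1 under DEX, 1 at 1 week and 3 at 4 weeks, against 6.8%, 3.79% and 6.35% of all genes. *Hsd11b2*, on these few reads, was the 1 under DEX and was among the 3 at 4 weeks. The median log2 difference over the 10 members was 0.03, -0.20 and 0.05, against -0.02, 0.00 and 0 over all genes. Over the 9 members without *Hsd11b2* it was 0.02, -0.21 and 0.04.

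The 95% intervals lay within 2-fold of control in both directions for 6 of 10 members under DEX, 6 at 1 week and 5 at 4 weeks. *Nr3c2*, *Fkbp4*, *Ncoa2* and *Smarca4* were among them in each comparison. *Nr3c1* was among them under DEX and at 1 week, and its 4-week interval reached -1.15.

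**Figure D5:**
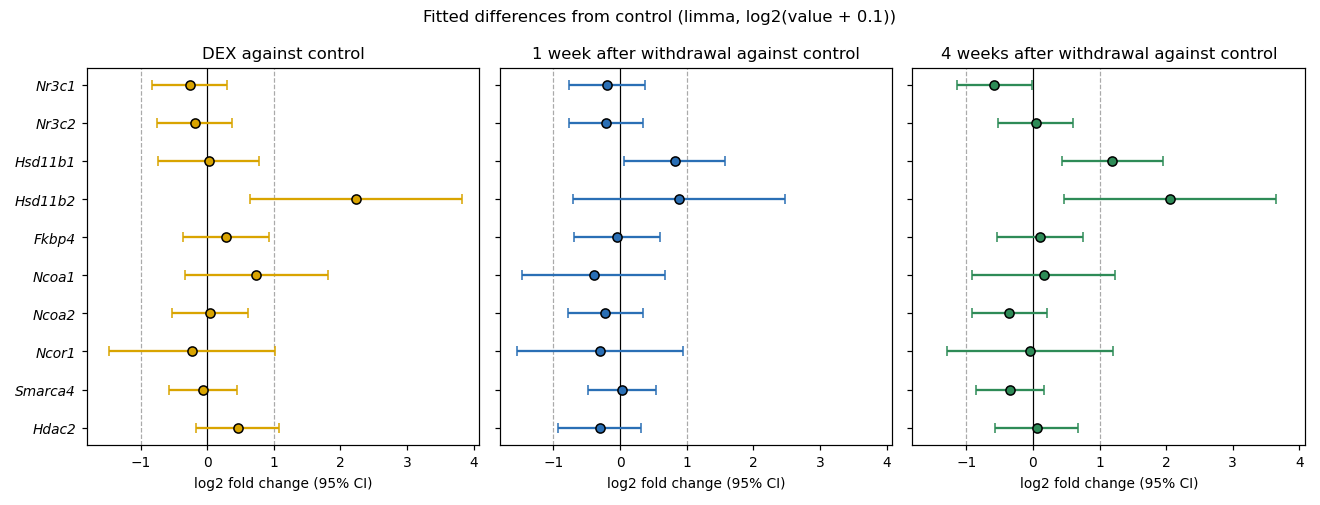
Log2 fold changes of the 10 genes against control with 95% confidence intervals (limma, 12 libraries in 1 model), for DEX, 1 week and 4 weeks after withdrawal, with dashed lines at 2-fold. The intervals of *Hsd11b1* at 4 weeks (0.44 to 1.95) and of *Nr3c1* at 4 weeks (-1.15 to -0.01) leave 0 out before adjustment, and *Hsd11b2* rests on 0 to 9 reads a pool.

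Comparisons with DEX share the DEX pools. From DEX to 1 week, 2 of 10 members did not overlap (*Hsd11b1* higher and *Hdac2* lower), against 13.8% of all genes. From DEX to 4 weeks there were 3 (*Hsd11b1* higher, *Nr3c1* and *Smarca4* lower), against 19.5%. Between 1 and 4 weeks there were 0, against 8.92%. In limma 0 of 10 members passed in each of these contrasts, against 0.433%, 0.873% and 0% of all genes. At an unadjusted p under 0.05 there were 3, 1 and 0 members, against 10.8%, 9.94% and 5.47% of all genes, and by edgeR and DESeq2 0 of 10.

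Transcripts known as targets of the receptor were read beside its own level and those of its partners. Of 21 listed glucocorticoid targets, 3 passed the limma F test (*Fkbp5*, *Sult1a1* and *Arrdc2*), against 0.315% of all genes, and 13 had an unadjusted p under 0.05, against 9.21%. The list was chosen with earlier results of these data known. The paper had already listed these 3 genes as raised by DEX in the same libraries. The counts therefore describe the list and are not independent support. *Sult1a1*, a sulfotransferase, had 6.53, 1.41 and 3.26 normalised counts in controls, 27.4, 21.6 and 42.7 under DEX, 2.76, 3.57 and 6.23 at 1 week, and 3.97, 4.38 and 5.68 at 4 weeks. Its DEX pools lay above all others, by 3.19 on the log2 scale against control (SE 0.49, limma adjusted p 0.0175). *Arrdc2*, an arrestin-domain gene, measured 6.37, 8.36 and 8.05 in controls, 35.5, 18.6 and 37.2 under DEX, 6.08, 1.66 and 4.34 at 1 week, and 9.42, 8.32 and 6.41 at 4 weeks. It was higher under DEX by 1.93 (SE 0.43, limma adjusted p 0.113), and it fell by 3.00 from DEX to 1 week (limma adjusted p 0.00581). The 4-group calls of both were lost without DEX pool 1 (limma adjusted p 0.203 for *Sult1a1* and 0.232 for *Arrdc2*), DEX pool 3 (0.223 and 0.216) or 4-week pool 2 (0.0582 and 0.0609). That of *Sult1a1* was lost without DEX pool 2 (0.0562), and that of *Arrdc2* without control pool 2 (0.0503) or 4-week pool 3 (0.0539).

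From DEX to 1 week, 6 of the 21 targets fell and 0 rose in limma, against 0.433% of all genes called in either direction. From DEX to 4 weeks 3 fell and 0 rose, against 0.873%. The same limit holds for these counts, because the list was chosen with earlier results known. Among 14 listed partners of the receptor in *Pomc* repression, 0 passed the limma F test, with 2 at an unadjusted p under 0.05 (all genes 9.21%). From DEX to 1 week 1 of these 14 passed in limma, *Crem*, named after its values were seen and higher by 1.63 on the log2 scale (adjusted p 0.0297).

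The genes whose pool-to-pool pattern was most like each member's were found among 9548 genes with a mean of at least 10, by Pearson r of log2 values over the 12 libraries. For *Nr3c1* they were *Pon3* (r = 0.910), *Lsamp* (0.897) and *Palmd* (0.891). For *Hsd11b1* they were *Efna1* (0.925), *Gstm1* (0.901) and *Tagln2* (0.898), and for *Ncor1* *Slc12a2* (0.963), *Cop1* (0.960) and *Rmnd5a* (0.958). The nearest gene was *Mdm2* for *Nr3c2* (0.915), *Pcbp3* for *Fkbp4* (0.929), *Nr2c2* for *Ncoa1* (0.942), *Srsf7* for *Ncoa2* (0.966), *Kif1a* for *Smarca4* (0.970) and *Slc30a5* for *Hdac2* (0.942). Next in order, with r of 0.884 to 0.961, came *Hspa4* and *Marveld2* for *Nr3c2*, *Mgme1* and *Apeh* for *Fkbp4*, *Ppp2r5a* and *Ogfrl1* for *Ncoa1*, *Ranbp2* and *Dnm1l* for *Ncoa2*, *Rfx1* and *Snrpa* for *Smarca4*, and *Tmem260* and *Ctdspl2* for *Hdac2*. These are the highest of many correlations over few libraries and are given as a description. Within the set, *Nr3c1* and *Hsd11b1* ran opposite to each other (r = -0.699, rho = -0.818), which is likewise a description of 12 libraries that share group structure.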

How the data were processed

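cDNA of the sorted cells was made with SMART-V4 chemistry, then turned into Nextera XT libraries. The authors trimmed reads (Trim Galore 0.6.5), aligned them to GRCm38 with STAR 2.7.1a, counted read pairs per gene with featureCounts 2.0.0 in its strand-specific mode and analysed them with edgeR. The kit does not mark strand, so counting by strand can leave out part of a gene's read pairs and take in pairs of genes on the opposite strand, by an amount that was not tested here. What the authors deposited is a normalised signal, the CPM of the scaled library size. They had been taken for plain CPM in planning, and the planned test was kept. All of the 271881 values above 0 (100%) were whole multiples of 1 read (tolerance 0.001), so read counts were recovered, and the edgeR quasi-likelihood test on them called 165 genes over the 4 groups.

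Groups came from the sample titles. Analysis used R 4.3.3 with limma 3.58.1 (lmFit, eBayes with trend) on log2(value + 0.1) of the 24736 genes whose value exceeded 0.1 in 3 or more libraries, with the 12 libraries in 1 model, an F test over the 3 contrasts with control and 6 pairwise contrasts. Fold changes are on this scale, which understates changes of low genes. Adjusted p-values cover all genes. Alternatives used edgeR 4.0.16 and DESeq2 1.42.0. The fit was tested on simulated data. Transcript lengths came from GENCODE M21 (GRCm38). Counting limits cover counting error only. No 2 libraries were identical. Named genes were the members, list genes past the F test, *Fkbp5*, *H6pd*, *Ncoa3*, *Smarca2*, *Hdac1*, and the 3 genes most like each member. The members and lists were chosen with earlier results of these data known. 1 further gene of that rule is not reported here.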

Additional observations from a re-analysis of the deposited data

How the results depend on the processing

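The number of members past the test was 0 in the comparison over the 4 groups and in each of the 6 contrasts. Array weights changed this to 1 over the 4 groups, 1 at 4 weeks against control and 1 at 4 weeks against DEX (*Hsd11b1* each time), where all genes called rose from 78 to 1069, 0 to 186 and 216 to 1300. It changed with log2 *Malat1* as a covariate, added after the data were seen, to 1 at 1 week against DEX (*Ncoa1*), where all genes called rose from 107 to 791. The cause was not tested. Leaving out each pool in turn gave 0 to 0 members in every comparison. Leaving out the 4 pools of lowest weight, also added later, gave 0 members in every comparison, with 0 of all genes over the 4 groups, 3 at 4 weeks against control, 50 at 4 weeks against DEX and 0 in the other contrasts. That fit left 1 pool at 1 week, assumed to vary like the others. With the replicate number as a replicate block the count was 0 in every comparison, and 85 of all genes passed over the 4 groups. The labels tie the numbers to no shared animal, batch or day, so the numbers were not taken to pair the pools. Of the same-number pairs, 7 of 18 correlated above 0.1. The median r was 0.056 for same-number pairs and -0.014 for the others, and 8 of 12 pools correlated best with a pool of their own number, a hint from the data that was not tested.

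Over all alternatives, the log2 differences of members kept their direction in 1441 instances, became significant in 3 and changed sign without a call in 106. The number of all genes past the F test was 78, and 165 by edgeR's quasi-likelihood test, 1047 by its likelihood ratio test, 734 by DESeq2, 1069 with array weights, 626 with the *Malat1* covariate and 7 to 185 when 1 pool was left out (7 without DEX pool 3). For the contrasts with calls, the 30, 107 and 216 genes became 0 to 270, 0 to 791 and 18 to 1300. With 1 pool left out they were lowest at 2 (without control pool 2 or DEX pool 3), 16 (without DEX pool 3) and 18 (without 4-week pool 2). At 1 week and 4 weeks against control and between these groups, 0 genes became up to 50, 186 and 262. Of the glucocorticoid targets, 3 past the F test became 0 to 12. Under the other scalings the median log2 difference of all genes was at most 0.11 (DESeq2, 1 week against DEX), against 0.03 in the reported fit. Levels per kilobase with the longest transcript or coding length kept *Fkbp4* first and *Hsd11b2* last. *Hsd11b2* rested on at most 9 reads a pool and was not tested with the filter at 1.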
